A study of Mus musculus with 8 samples.

Results

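The genes described here are 10 receptor tyrosine kinases, taken by symbol from a table of 22691 genes: Kit, Fgfr1, Fgfr2, Fgfr3, Met, Ret, Igf1r, Insr, Egfr and Erbb3. All 10 were in the table and all 10 passed the filter on low counts. They were measured by RNA-seq in cells derived from primary mouse small cell lung cancer (SCLC), a neuroendocrine tumor of the lung, with and without forced expression of mouse Nfib, which encodes a DNA-binding regulator of the nuclear factor I (NFI) group. The questions asked here are which receptors dominate in each culture and how each receptor changes when Nfib is forced up. In the Nfib group, 4 libraries came from lung tumor cells overexpressing Nfib. In the empty vector group, 4 libraries came from the same cultures carrying the vector alone. All 8 libraries share the invCAG-Mycl-Luc transgene, which carries Mycl, the loss of Rb1, and a mixed FVB/n and 129/Ola background, per the labels. The sample descriptions name line Lmyc1 for pair 1, line Lmyc3 for pairs 2 and 3, and line Lmyc5 for pair 4. They call pairs 1 and 2 old and pairs 3 and 4 new, without saying what is meant. The cells of a pair share a culture, so Nfib was compared with empty vector within pairs. The labels do not say that the 4 libraries of a group came from separate animals, so p-values describe only the spread seen among these 8 libraries, which may be technical.

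Receptor tyrosine kinases are single-pass membrane proteins that bind a ligand outside the cell, pair up and phosphorylate tyrosines on each other's cytoplasmic tails. The phosphorylated tails recruit adaptors that switch on the Ras-MAP kinase and phosphoinositide 3-kinase pathways, which drive growth, survival and migration. Kit, the receptor for stem cell factor, and Ret, the receptor for the GDNF family of ligands, are both known from neuroendocrine cells and tumors. Fibroblast growth factor (FGF) receptors, Met, the insulin and insulin-like growth factor receptors, and the ErbB family to which Egfr and Erbb3 belong serve a wide range of epithelial tissues.

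Total counts lay between 21815264 and 29934021 per library, and a count of 0 allows a level of up to 3 counts, which came to between 0.1016 and 0.142 CPM, the unit of counts-per-million used throughout. These limits and the intervals given for single pairs cover counting error only. The Nfib transcript itself was at 1281, 4672, 2929 and 3583 CPM in the Nfib libraries of pairs 1 to 4, against 71.9, 399, 163 and 487 CPM in the empty vector libraries, so every library matched its label. Neuroendocrine identity was checked with 7 marker genes, all expressed in both groups. Among them Chga, which encodes the secretory granule protein chromogranin A, was at 930.3, 865, 906 and 790.4 CPM with Nfib, against 908, 1691, 814 and 425 CPM with empty vector. The paired DESeq2 test used below passed 0 of the 7, where it called 4.06% of all 13380 genes, so 0 of 7 is near the background. In that test 2 of the 7 had an unadjusted p under 0.05, where 1854 of all genes did. EdgeR in its original form called 0 of the 7, but it called 0 genes in all, so that count cannot set the markers apart. Markers of other cell types were low. Mast cell markers, which matter because mast cells carry Kit, summed to between 0.0459 and 0.273 CPM in Nfib libraries and between 0 and 2.44 CPM in empty vector libraries. Leukocyte markers summed to between 1.73 and 2.49 CPM with Nfib and between 1.53 and 2.48 CPM with empty vector, and fibroblast markers to between 0.302 and 12.4 CPM with Nfib and between 0.519 and 10.4 CPM with empty vector. Endothelial markers summed to between 0.435 and 6.81 CPM with Nfib and between 0.185 and 1.89 CPM with empty vector. Kdr alone gave 5.74 and 6.47 CPM in Nfib replicates 2 and 3. Pecam1 reached at most 0.425 CPM and Tek at most 1.37 CPM, both in empty vector replicate 2. Cdh5 and Emcn were at or under 0.0451 CPM in every library. Pdgfra gave 12.1 CPM of the highest fibroblast sum. Summed markers of alveolar and airway epithelium lay between 3.74 and 12.1 CPM with Nfib and between 2.48 and 12.7 CPM with empty vector. The part of such cells in the results was not tested.

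The promoters of 6 of the 10 receptors (Kit, Fgfr2, Fgfr3, Met, Igf1r and Egfr) had 8 entries in a RefSeq table of build GRCm38.p6, each spanning 250 bases before to 50 bases after an annotated start. The windows were searched on both strands for the NFI palindrome (TTGGC and GCCAA with any 5 bases between) and for TTGGCA, which can overlap the first part of it. None of the 8 windows held either run of letters, where 12 of all 32851 promoters in the table held the palindrome and 4640 of them (14.1%) held TTGGCA. The GC box GGGCGG, a motif chosen after the values were seen, was found in 7 of the 8 windows (all but that of Fgfr2) and in 35.7% of all promoters. Kit and Fgfr3 have 2 windows each, and those of Kit nearly coincide, starting at 75574737 and 75574741. By gene, all of the 6 receptors but Fgfr2 held the GC box, where 38.2% of all genes did. The windows of Kit, whose transcript fell with Nfib, and of Egfr, whose within-pair ratio had opposite signs in different cultures, are shown here as examples. Capitals mark the GC box, read on either strand. The Kit window is chr5:75574737-75575036 and the Egfr window is chr11:16751953-16752252, both on the plus strand of GRCm38.
Kit promoter: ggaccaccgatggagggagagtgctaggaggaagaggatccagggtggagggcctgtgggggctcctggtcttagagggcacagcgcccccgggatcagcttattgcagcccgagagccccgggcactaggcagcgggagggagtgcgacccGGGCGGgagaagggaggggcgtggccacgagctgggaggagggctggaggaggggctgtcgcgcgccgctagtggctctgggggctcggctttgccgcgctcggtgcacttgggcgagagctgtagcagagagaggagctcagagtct
Egfr promoter: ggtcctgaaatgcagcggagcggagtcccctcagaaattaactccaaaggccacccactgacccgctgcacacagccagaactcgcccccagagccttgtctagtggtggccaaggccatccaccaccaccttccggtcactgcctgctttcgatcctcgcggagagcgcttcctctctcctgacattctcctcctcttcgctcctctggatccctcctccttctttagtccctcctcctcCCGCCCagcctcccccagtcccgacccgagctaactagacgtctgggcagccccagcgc

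In absolute level per length the cultures differed most in Ret, Kit, Met and Erbb3. By fold between the highest and the lowest empty vector library, Fgfr1 differed most of the 9 receptors with counts in all of them, at 163-fold, followed by Met at 75.9-fold, Erbb3 at 48.5-fold, Ret at 14.8-fold and Kit at 5.92-fold, though the lowest Fgfr1 value rests on 2 counts. On the scale of CPM per kilobase of exon, the 10 receptors summed to 119 in the Nfib library and 113 in the empty vector library of culture 1, and to 101 with Nfib and 125 with empty vector in culture 3. The sums were lower in culture 2, at 21.3 with Nfib and 29.0 with empty vector, and in culture 4, at 27.3 with Nfib and 39.5 with empty vector. Ret alone made up 44.6% of the summed level with Nfib and 41.3% with empty vector in culture 1, and 59.5% with Nfib and 57.7% with empty vector in culture 3. Its level in these 4 libraries was between the 94.5th and the 97.3rd percentile of 17019 protein-coding genes ranked per length. Cultures 2 and 4 had no receptor of such a share.

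Behind Ret, the order of receptors differed between cultures. In culture 1, Met and Kit came next, with Met at 27.3 and Kit at 20.3 CPM per kilobase with Nfib, and Met at 22.7 and Kit at 23.6 CPM per kilobase with empty vector. In culture 3, Erbb3 and Kit came next, with Erbb3 at 13.3 and Kit at 12.5 CPM per kilobase with Nfib, against Erbb3 at 22.2 and Kit at 14.8 CPM per kilobase with empty vector. Met and Kit in culture 1 changed places between the arms, and Erbb3 and Kit in Nfib replicate 3 were close, so these neighbours were not set apart. Culture 2 was led by Insr, with 23.2% of the summed level in the Nfib library and 19.3% in the empty vector library, and by Erbb3, with 19.2% with Nfib and 18.4% with empty vector. In culture 4 the lead differed between the arms, with Insr at 24.9%, Kit at 19.5% and Fgfr2 at 17.6% in the Nfib library, against Ret at 31.9%, Kit at 21.96% and Fgfr2 at 21.4% in the empty vector library. Ret held 10.3% of the sum in that Nfib library. The leads in cultures 2 and 4 depend on the length used: with the longest transcript in place of the union of exons, Fgfr2 led in Nfib replicate 4 and in empty vector replicates 2 and 4, while Ret led in both arms of cultures 1 and 3 in either case.

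**Figure D1:**
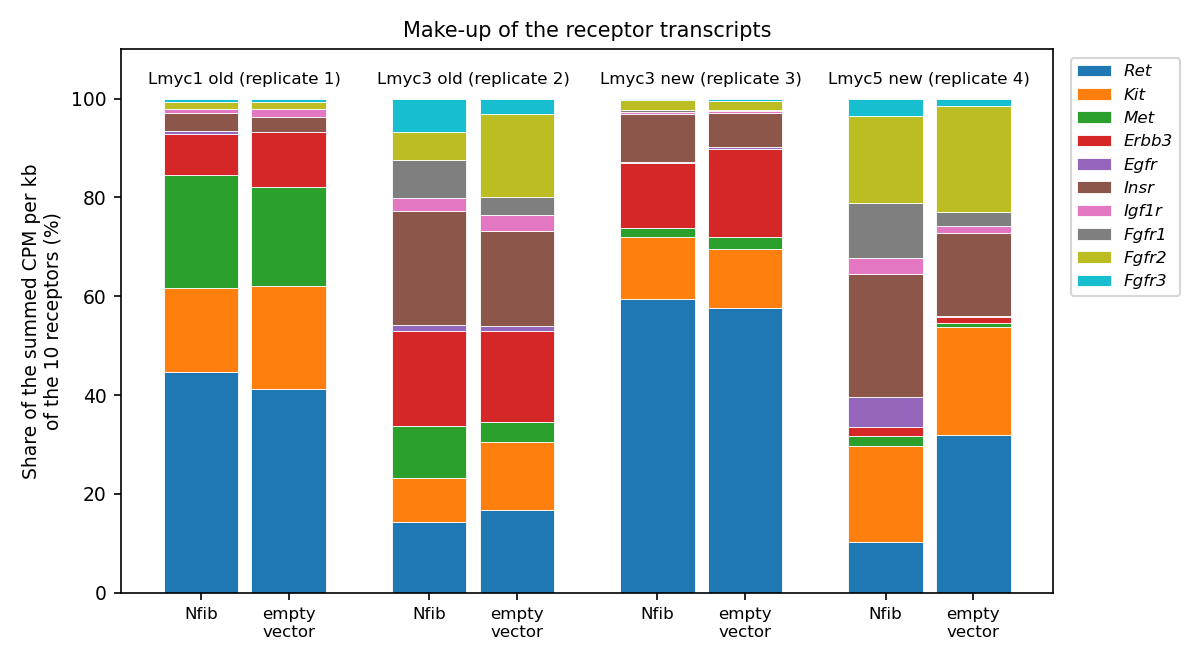
Share of each of the 10 receptors in the summed level (CPM per kilobase of exon, percent) in each library, Nfib to the left of empty vector within each culture. Ret makes up between 41.3% and 59.5% of the bars of cultures 1 and 3 and between 10.3% and 31.9% of those of cultures 2 and 4.

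A test of the 4 cultures in edgeR's quasi-likelihood fit, with group as a covariate, called 8 of the 10 receptors different between cultures at a Benjamini-Hochberg adjusted p under 0.05, where 76.7% of all 13380 genes were called. The receptors are therefore near the background in how often they vary. Those not called were Igf1r (adjusted p of 0.121) and Egfr (adjusted p of 0.910). With 1 culture left out, the adjusted p of Igf1r lay between 0.0124 and 0.531, so that it too depended on single cultures. The smallest adjusted p was that of Erbb3 (1.50e-04), followed by Met (3.93e-04), Kit (6.39e-04) and Fgfr1 (7.10e-04). Both libraries of a culture stand in for replicates in this test. The calls of Fgfr2 and Fgfr3 depended on single cultures, with an adjusted p of 0.451 for Fgfr2 without culture 4, and of 0.181 without culture 3 and 0.0533 without culture 2 for Fgfr3.

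The Lmyc3 cultures differed from each other in their receptors by less than the median distance between cultures of different lines, but within its range. Over the 10 receptors, the root mean square difference of log2 CPM between cultures 2 and 3 was 1.93 among Nfib libraries and 1.86 among empty vector libraries. Cultures of different lines lay between 1.69 and 3.25 apart among Nfib libraries (median 2.61) and between 1.52 and 3.58 apart among empty vector libraries (median 2.52). Over all genes tested the Lmyc3 cultures differed by 1.71 with Nfib and by 1.70 with empty vector, within the range of other lines in the empty vector group (1.31 to 1.72) and above it in the Nfib group (1.23 to 1.64). The arms of a pair lay 2.32, 0.909, 0.738 and 1.63 apart over the receptors in pairs 1 to 4, against 0.475, 0.643, 0.483 and 0.498 over all genes. The value of pair 1 comes mainly from Egfr, which had 0 counts in empty vector replicate 1. Without Egfr, left out after the data were seen, the pairs lay 0.834, 0.958, 0.672 and 1.02 apart.

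**Figure D2:**
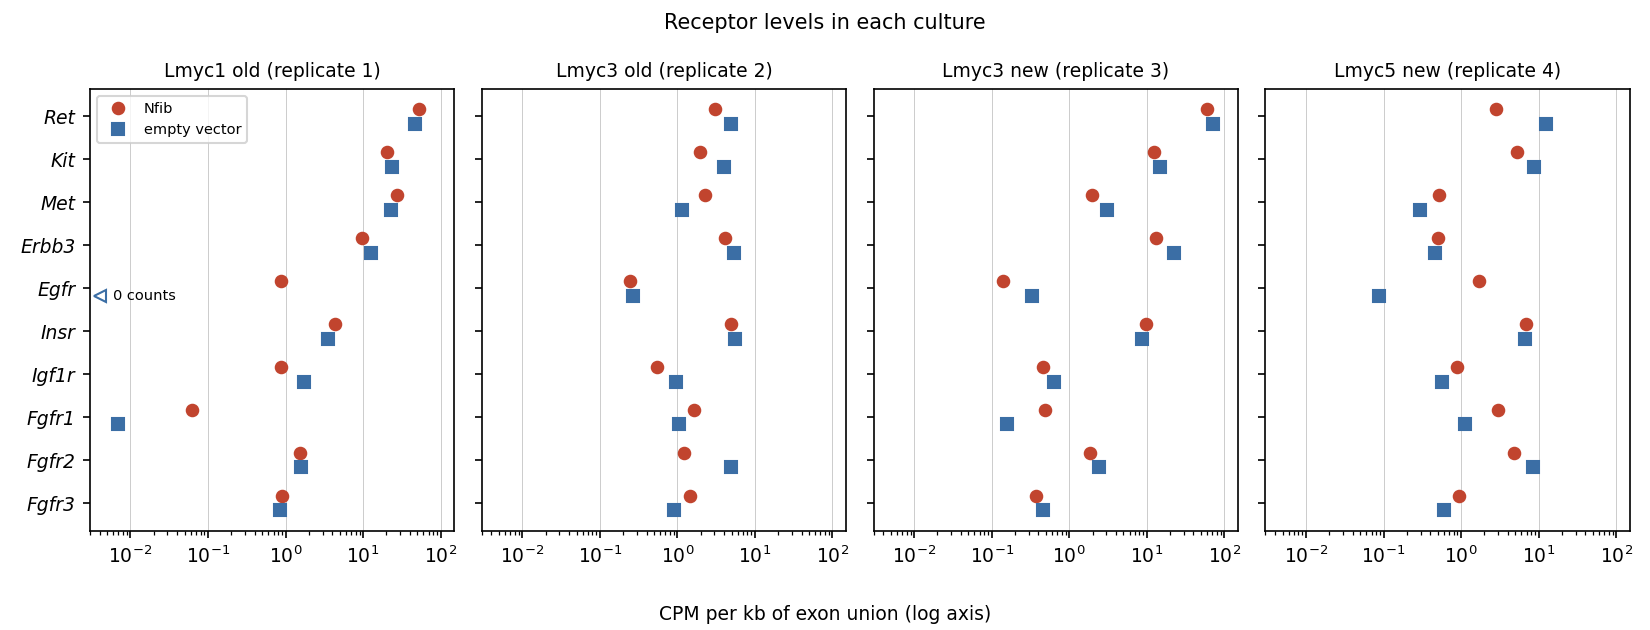
Level of each receptor in each library, in CPM per kilobase of exon on a log axis, with 1 panel per culture and the Nfib library (circle) drawn above the empty vector library (square). An open triangle marks the library with 0 counts of Egfr. Fgfr1, Met, Erbb3 and Ret spread widely between cultures, while Insr stays between 3.56 and 9.73 in all 8 libraries.

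With Nfib, 1 receptor rose (Fgfr1) and 1 fell (Kit) of 10 in DESeq2's Wald test within pairs, at a Benjamini-Hochberg adjusted p under 0.05 over all genes. The same test called 4.06% of all 13380 genes, 1.86% higher and 2.20% lower, and with scaling by total counts it called 324 higher and 201 lower where the size factors gave 249 higher and 294 lower. In the text, rose and fell refer to this test. The paired log2 fold change was positive for 5 receptors and negative for 5, with a median of -0.16, where the median over all genes was -0.01. The sign was the same in all 4 pairs for 3 of the 10 receptors (Kit, Fgfr1 and Fgfr2), where 25.6% of all genes had 1 sign throughout. Nfib and empty vector libraries overlapped in CPM for each of the 10 receptors, and only 0.516% of all genes did not overlap. The calls rest on the choice of test. DESeq2 was chosen with earlier results of these data known, in which edgeR in its original form called no gene. With the replicate block edgeR's quasi-likelihood test called 0 of the 10 receptors and 0 genes in all, although 4 receptors and 2012 genes had an unadjusted p under 0.05, and without the block it called 0 receptors and 0 genes, with 0 receptors and 83 genes at an unadjusted p under 0.05.

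**Figure D3:**
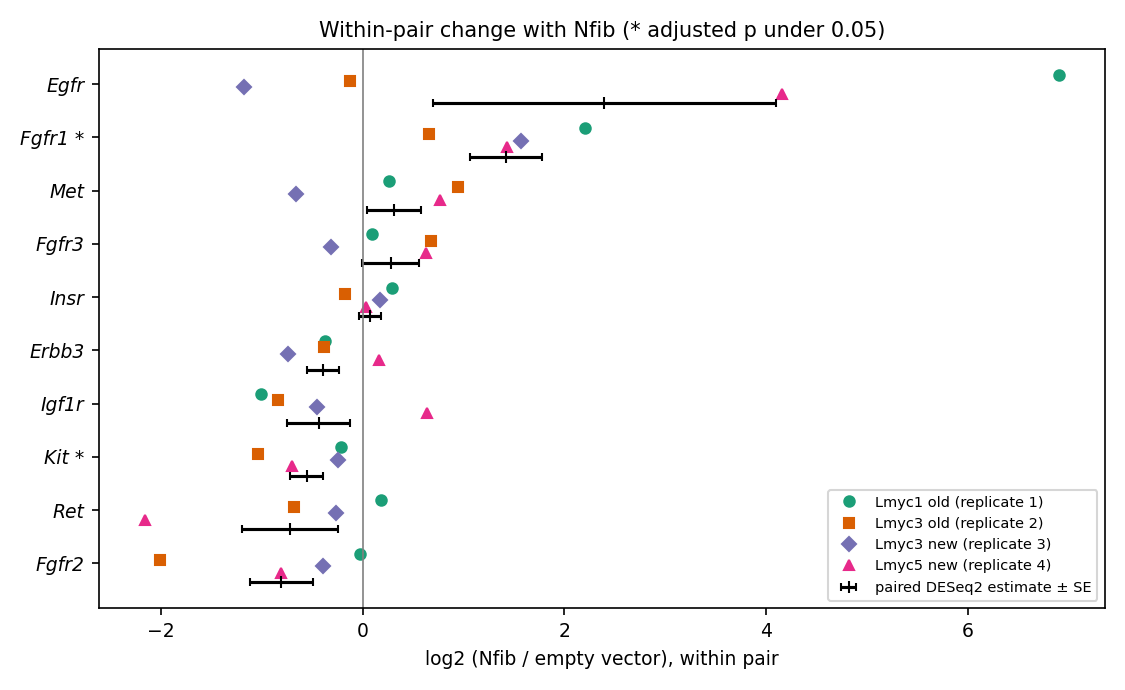
Within-pair log2 ratio of CPM (Nfib over empty vector, prior count of 2) of each receptor in the 4 pairs, 1 marker per culture, with the paired DESeq2 log2 fold change and its standard error as a bar and an asterisk where the adjusted p is under 0.05. All 4 pairs lie above 0 for Fgfr1 and below 0 for Kit and Fgfr2, while Egfr runs between -1.17 and 6.91.

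Kit (ENSMUSG00000005672, chromosome 5, 75574916 to 75656722, GRCm38, plus strand) encodes the receptor for stem cell factor. It was at 181, 17.3, 112 and 47.5 CPM in the Nfib libraries of pairs 1 to 4, against 211, 35.6, 132 and 77.3 CPM in the empty vector libraries. Cultures 1 and 3 were high and cultures 2 and 4 low in both arms, and in each pair the Nfib library was the lower. Nfib libraries averaged 89.3 ± 72.6 CPM and empty vector libraries 114 ± 75.7 CPM (SD, n = 4 each), so the group means lay well within the spread between cultures. Within pairs Kit fell by 0.55 ± 0.16 on the log2 scale (SE, DESeq2 adjusted p of 0.0236, edgeR with the block 0.234). The pair log2 ratios were -0.22, -1.04, -0.25 and -0.70, with the larger changes in the 2 cultures where Kit was low. Without pair 2 the adjusted p of DESeq2 was 0.0975, and without pair 4 it was 0.260. In bulk RNA, fewer cells with a transcript and less of it per cell cannot be told apart.

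Kitl, the gene of stem cell factor and so the ligand of Kit, rose while Kit fell. The Nfib libraries had 101, 88.6, 59.1 and 147 CPM of Kitl, against 73.8, 55.1, 29.3 and 72.6 CPM in the empty vector libraries. Every pair was higher with Nfib, and the groups overlapped because of culture 3, the lowest in both arms. The paired rise was 0.78 ± 0.13 on the log2 scale (SE, DESeq2 adjusted p of 2.16e-06, edgeR with the block 0.140), and Kitl passed DESeq2 with any 1 pair left out. Ligand and receptor were thus present in the same cultures, in both arms. Of the 6 mast cell markers sought, 3 were in the table and none of them was frequent enough to be tested. The largest sum was 2.44 CPM in empty vector replicate 1, where Kit was at 211 CPM. All of that sum came from Hdc, with Tpsb2 and Ms4a2 at 0 CPM in that library.

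Among FGF receptors, Fgfr1 rose, Fgfr2 was lower in all pairs without passing the test, and Fgfr3 had no common direction. Fgfr1 (ENSMUSG00000031565, chromosome 8, 25513654 to 25575714) was at 0.609, 16.3, 4.79 and 29.997 CPM with Nfib, against 0.0678, 10.3, 1.56 and 11.04 CPM with empty vector. It was highest in culture 4 and lowest in culture 1, and higher with Nfib in every pair. Group means were 12.9 ± 13.2 CPM with Nfib and 5.74 ± 5.73 CPM with empty vector (SD, n = 4 each). Fgfr1 rose by 1.42 ± 0.36 on the log2 scale (SE, DESeq2 adjusted p of 0.00417, edgeR with the block 0.178). Pair 1 rests on 14 counts with Nfib and 2 with empty vector, a ratio of 8.99 with a 95% interval from 2.07 to 81.5. In the better covered pairs 2, 3 and 4 the ratios were 1.58, 3.08 and 2.72. Without pair 4 the adjusted p of DESeq2 was 0.164, with a log2 change of 1.51.

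Fgfr2 (ENSMUSG00000030849, chromosome 7, 130162451 to 133123350) was at 15.8, 12.4, 19.4 and 49.8 CPM with Nfib, against 16.1, 50.4, 25.4 and 87.1 CPM with empty vector. Culture 4 was the highest in both arms, and the gap between arms ran from almost none in pair 1 to a log2 ratio of -2.01 in pair 2. The paired log2 fold change of -0.81 ± 0.31 (SE) did not pass DESeq2 with all pairs (adjusted p of 0.135). Fgfr2 passed in 1 of the 4 fits that leave out a pair. That was the fit without pair 1, the pair with almost no gap, at -1.07 (DESeq2 adjusted p of 0.0330). Fgfr2 shares 314 exon bases with Ctbp2 on the same strand, 3.04% of its exon length, and Ctbp2 lay between 63.1 and 89.3 CPM in all 8 libraries. Fgfr3 (ENSMUSG00000054252, chromosome 5, 33721724 to 33737068) was at 6.40, 10.3, 2.67 and 6.82 CPM with Nfib, against 5.997, 6.42, 3.34 and 4.37 CPM with empty vector, and its log2 fold change of 0.28 ± 0.28 (SE) did not pass (DESeq2 adjusted p of 0.775). It was higher with Nfib in pairs 1, 2 and 4 and lower in pair 3. A transcript on the opposite strand, G630022F23Rik, overlaps 13.94% of the Fgfr3 exons, and the strand setting of the counting is not given in the sources used here.

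Of the relatives of the FGF receptors, Fgfrl1 rose and Kl fell, while Fgfr4 did not pass (DESeq2 adjusted p of 0.623). Fgfrl1, an FGF-binding receptor that lacks the kinase domain, was at 4.88, 0.551, 4.35 and 4.99 CPM with Nfib, against 0.610, 0.472, 0.334 and 1.58 CPM with empty vector. It was clearly higher with Nfib in pairs 1, 3 and 4 and nearly level in pair 2. Fgfrl1 rose by 2.19 ± 0.64 on the log2 scale (SE, DESeq2 adjusted p of 0.0215, edgeR with the block 0.208), and passed in 1 of the 4 fits that leave out a pair. Kl, which encodes klotho, a co-receptor that lets FGF receptors bind the hormone FGF23, was at 1.04, 0.138, 7.11 and 2.26 CPM with Nfib, against 3.02, 1.09, 32.2 and 3.11 CPM with empty vector. Every pair was lower with Nfib, and culture 3 stood above the others in both arms. Kl fell by 1.66 ± 0.44 on the log2 scale (SE, DESeq2 adjusted p of 0.00695, edgeR with the block 0.19996), with an adjusted p of 0.472 without pair 3.

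Ret (ENSMUSG00000030110, chromosome 6, 118151748 to 118197744), which signals for GDNF-family ligands through GFRA co-receptors, was the most abundant of the 10 per length in 5 of 8 libraries. It was at 358, 20.6, 406 and 19.01 CPM with Nfib, against 316, 33.0, 487 and 85.2 CPM with empty vector. Cultures 1 and 3 were high in both arms, and the arms parted most in culture 4, where the ratio was 0.223 (95% interval from 0.201 to 0.246, counting error only). Means were 201 ± 210.0 CPM with Nfib and 231 ± 211 CPM with empty vector (SD, n = 4 each), and the log2 fold change of -0.72 ± 0.48 (SE) did not pass (DESeq2 adjusted p of 0.561). Gfra4, the co-receptor of Ret for persephin, rose by 2.04 ± 0.38 on the log2 scale (SE, DESeq2 adjusted p of 1.67e-05, edgeR with the block 0.166) and passed with any 1 pair left out. It was at 9.75, 18.96, 9.96 and 41.1 CPM with Nfib, against 2.27, 9.39, 0.926 and 11.4 CPM with empty vector. Gfra4 was higher with Nfib in every pair and was highest in culture 4, where the Nfib library had the least Ret of the 8.

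Met (ENSMUSG00000009376, chromosome 6, 17463800 to 17573980), the receptor for hepatocyte growth factor, was abundant in 1 culture. It was at 209, 17.2, 15.1 and 3.97 CPM with Nfib, against 174, 8.92, 23.9 and 2.30 CPM with empty vector. Culture 1 lay far above the others in both arms, and Nfib was higher in pairs 1, 2 and 4 and lower in pair 3. The log2 fold change was 0.31 ± 0.27 (SE, DESeq2 adjusted p of 0.707). Hgf, the ligand gene, was named after its values were seen: it was at 42.8 CPM in Nfib replicate 3 and 78.7 CPM in empty vector replicate 3, and at or under 1.31 CPM in each of the other 6 libraries. The culture with most Met was thus not the culture with most Hgf.

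Of the receptors for insulin and insulin-like growth factors, Insr moved least of all 10 within pairs. Insr (ENSMUSG00000005534, chromosome 8, 3150922 to 3279617), the insulin receptor, was at 59.99, 68.0, 134 and 93.5 CPM with Nfib, against 49.0, 76.9, 119 and 91.2 CPM with empty vector. Culture 3 was highest in both arms, and the paired log2 fold change of 0.07 ± 0.11 (SE) did not pass (DESeq2 adjusted p of 0.887). Igf1r (ENSMUSG00000005533, chromosome 7, 67952859 to 68226780), the receptor for insulin-like growth factors, was at 14.5, 9.04, 7.80 and 14.7 CPM with Nfib, against 29.3, 16.2, 10.7 and 9.42 CPM with empty vector. It was lower with Nfib in pairs 1 to 3 and higher in pair 4. Its log2 fold change was -0.44 ± 0.31 with all pairs (SE, DESeq2 adjusted p of 0.609). Igf1r passed in 1 of the 4 fits that leave out a pair. That was the fit without pair 4, the pair of opposite sign, at -0.78 (DESeq2 adjusted p of 0.0496). Of the related genes, Igf2r, which clears insulin-like growth factor 2 and has no kinase, was at 193, 0.780, 1.21 and 181 CPM with Nfib, against 197, 0.850, 2.30 and 156 CPM with empty vector. It was thus high in lines Lmyc1 and Lmyc5 and near 1 CPM in both Lmyc3 cultures, and it did not pass within pairs (DESeq2 adjusted p of 0.894). The kinase Insrr, a relative of Insr, reached 104 CPM in Nfib replicate 4 and 206 CPM in empty vector replicate 4, and did not pass either (DESeq2 adjusted p of 0.958).

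Egfr (ENSMUSG00000020122, chromosome 11, 16752203 to 16918158), the receptor for epidermal growth factor and transforming growth factor alpha, had the widest within-pair range of the 10. It was at 9.84, 2.80, 1.60 and 19.1 CPM with Nfib, against 0, 3.07, 3.71 and 0.992 CPM with empty vector. The Nfib libraries of pairs 1 and 4 stood apart, while pair 2 was level and pair 3 was lower with Nfib. In pair 1, 226 counts with Nfib stood against 0 with empty vector, at least 96.8-fold higher taking 3 counts for the empty vector library, with an exact 95% lower limit of 78.1 when the error of the 226 counts is included. In pair 4, 491 counts stood against 22, a ratio of 19.3 with a 95% interval from 12.6 to 31.1, and in pair 3, 37 counts stood against 100, a ratio of 0.431 with an interval from 0.287 to 0.634. The pairs did not share a direction, and Egfr did not pass (fitted log2 difference 2.40 ± 1.70, SE, with an adjusted p of 0.602 in DESeq2). Pairs 1 and 4 are of different lines and carry different words, old and new, so neither label groups them.

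Ligands of Egfr were measured as well. Tgfa, which encodes transforming growth factor alpha, was at 57.6, 6.20, 41.1 and 33.7 CPM with Nfib, against 40.6, 3.73, 32.6 and 27.1 CPM with empty vector. It was lowest in culture 2 in both arms and higher with Nfib in every pair. Tgfa rose by 0.44 ± 0.13 on the log2 scale (SE, DESeq2 adjusted p of 0.0199, edgeR with the block 0.177), but passed in 0 of the 4 fits that leave out a pair, where the log2 change lay between 0.38 and 0.50. Btc, the gene of betacellulin, was named after its values were seen: it was at 14.3, 17.7, 17.1 and 22.4 CPM with Nfib, against 9.55, 0.519, 9.005 and 13.97 CPM with empty vector. The groups did not overlap for Btc, which held for 0.516% of all genes tested. Yet the fit did not pass it (fitted log2 difference 1.54 ± 0.87, SE, with an adjusted p of 0.445 in DESeq2), with the largest gap in pair 2.

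**Figure D4:**
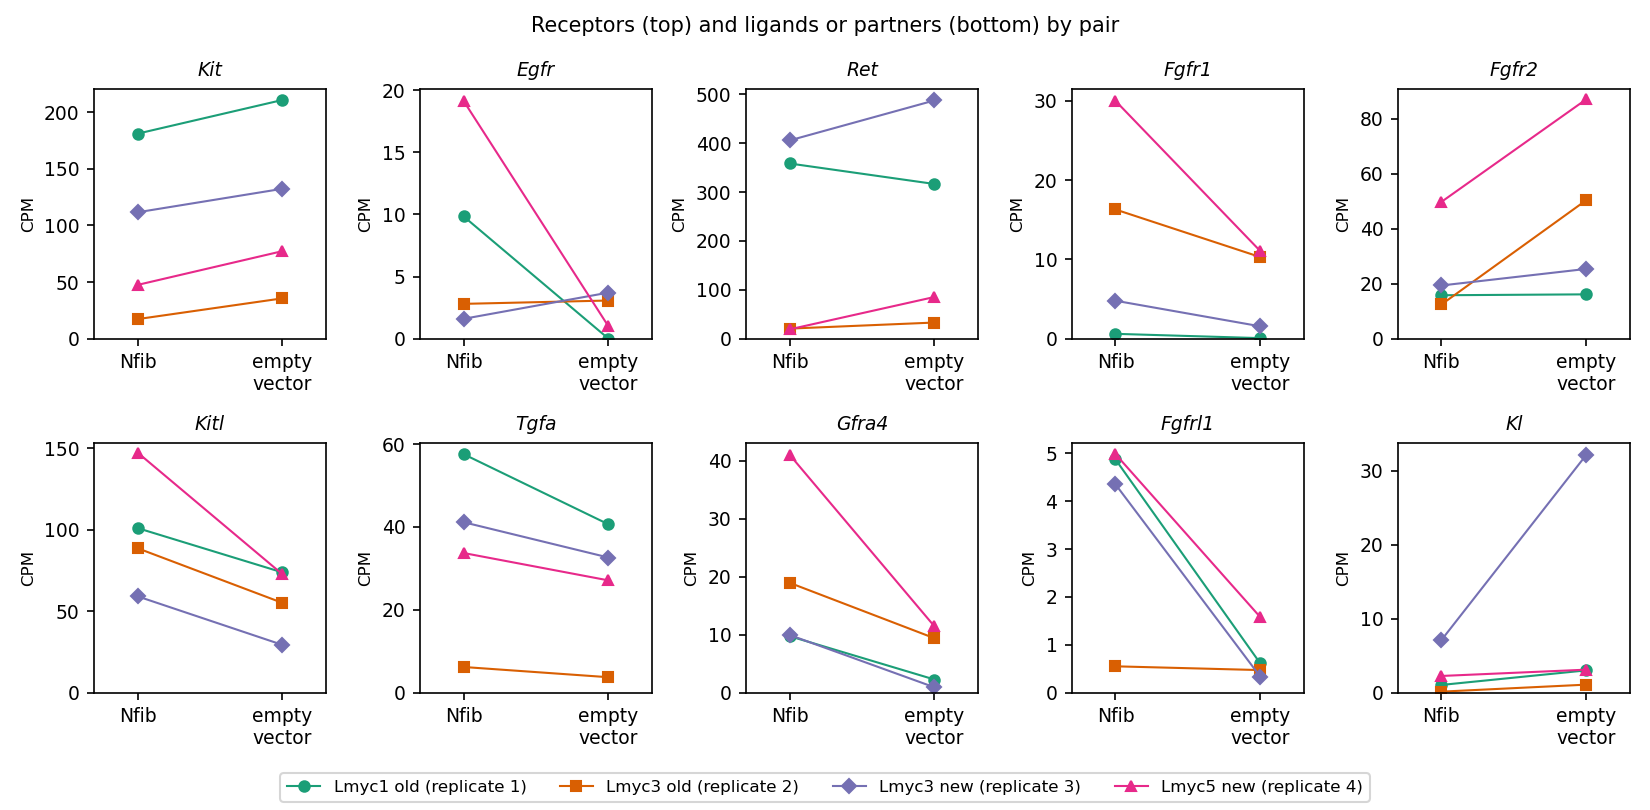
CPM, on linear axes that differ between panels, of 5 receptors (top) and of their ligands or relatives that passed the paired DESeq2 test (bottom), with the Nfib library to the left of the empty vector library of the same culture and a line joining them. Kitl, Tgfa and Gfra4 are higher with Nfib in all 4 pairs and Kl is lower in all 4.

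Erbb3 (ENSMUSG00000018166, chromosome 10, 128567523 to 128589652) is an ErbB receptor with a weak kinase that signals as the partner of other ErbB receptors. It was at 58.3, 24.6, 79.8 and 3.08 CPM with Nfib, against 75.5, 32.1, 133 and 2.75 CPM with empty vector. Culture 3 was highest and culture 4 lowest in both arms, and Nfib was lower in pairs 1 to 3. The log2 fold change was -0.39 ± 0.16 with all pairs (SE, DESeq2 adjusted p of 0.171). Erbb3 passed in 1 of the 4 fits that leave out a pair. That was the fit without pair 4, the pair of opposite sign, at -0.51 (DESeq2 adjusted p of 0.0348). Erbb2, its best known partner, was at or under 0.172 CPM in all 8 libraries. Annotated overlap with other genes covers 0.17% of its exons (9 bases shared with Mien1 on the opposite strand), and whether the counting missed Erbb2 reads for another reason was not tested. Erbb4 was at 8.32, 10.7, 0.0862 and 28.1 CPM with Nfib, against 2.78, 3.26, 0.371 and 25.3 CPM with empty vector. These partners were named after their values were seen. Erbb4 was thus highest in culture 4, where Erbb3 was lowest, and near 0 in culture 3, where Erbb3 was highest.

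Counts of the other genes of receptor signalling that passed can be read against the 1.86% of all genes that rose and the 2.20% that fell. Among 37 ligand genes in the table, 19 were tested and 2 rose (Kitl and Tgfa), with 0 falling. The median log2 fold change of the tested ligands was -0.14. Of 8 co-receptors and family partners tested, 2 rose (Gfra4 and Fgfrl1) and 1 fell (Kl), with a median of 0.28. Of 13 other receptor tyrosine kinases tested outside the Eph family, 2 rose and 0 fell, with a median of 0.10. Ror1, a receptor for Wnt ligands, rose by 2.80 ± 0.62 on the log2 scale (SE, DESeq2 adjusted p of 6.22e-04, edgeR with the block 0.2002). It was at 1.87, 42.1, 0.474 and 2.18 CPM with Nfib, against 0.136, 2.69, 0.0741 and 1.31 CPM with empty vector, higher in every pair and far higher in Nfib replicate 2 than elsewhere. Ror1 passed without pair 1, 3 or 4, while without pair 2 DESeq2 gave a log2 change of 2.31 and left the adjusted p undefined, which counts as not passing. Ddr1, a collagen receptor, was at 53.0, 94.4, 116 and 129 CPM with Nfib, against 43.7, 74.4, 93.8 and 119 CPM with empty vector. Its small rise of 0.25 ± 0.08 on the log2 scale (SE, DESeq2 adjusted p of 0.0453, edgeR with the block 0.190) passed in 0 of the 4 fits that leave out a pair.

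Downstream of the receptors, 31 adaptors and proximal effectors were tested, of which 1 rose and 0 fell, with a median log2 fold change of -0.02. The gene that rose, Pik3r1, encodes a regulatory subunit of phosphoinositide 3-kinase. It was at 91.7, 120.1, 27.8 and 93.9 CPM with Nfib, against 79.2, 101.7, 17.01 and 52.1 CPM with empty vector, higher in every pair, for a rise of 0.49 ± 0.15 on the log2 scale (SE, DESeq2 adjusted p of 0.0316, edgeR with the block 0.214). It passed in 2 of the 4 fits that leave out a pair. The most abundant adaptors, Ptpn11 (log2 fold change of 0.05 ± 0.05, SE) and Crk (0.07 ± 0.07, SE), did not pass. None of 17 negative regulators passed DESeq2 within pairs, where 4.06% of all genes did, and their median log2 fold change was -0.07. In DESeq2, 3 of the 17 had an unadjusted p under 0.05, where 1854 of all 13380 genes did. EdgeR with the block called 0 of them, but it called 0 genes in all, so that count cannot set them apart. Spry2, a feedback inhibitor, was at 2.35, 2.62, 4.70 and 20.9 CPM with Nfib, against 2.37, 3.45, 3.89 and 23.4 CPM with empty vector, and Dusp6, a phosphatase of MAP kinases, at 13.02, 2.39, 12.1 and 4.597 CPM with Nfib, against 15.8, 6.04, 14.7 and 2.43 CPM with empty vector. In both arms Spry2 was highest in culture 4 and Dusp6 in cultures 1 and 3, and both were named after their values were seen.

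Whether the change with Nfib differed between old and new cultures was tested as an interaction in edgeR with the replicate block. It called 0 of the 10 receptors and 0 genes, with 0 receptors and 405 genes at an unadjusted p under 0.05, and DESeq2 called 0 receptors and 7 genes. The receptor with the smallest unadjusted p was Igf1r (difference of log2 fold changes, new minus old, of 1.03, edgeR p of 0.0600). Ret had a difference of -0.95 (edgeR p of 0.241), and Kit (0.14) and Fgfr1 (0.39) had edgeR p of 0.695 and 0.564. With 2 cultures on each side, and line Lmyc3 on both, this comparison rests on few cultures.

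Genes whose profiles over the 8 libraries lay nearest to a receptor were sought among genes with a mean of at least 1 CPM. The measure was the root mean square difference of centred log2 CPM, as a description. Receptors with a narrow span of log2 CPM over the libraries were not searched, which left out Fgfr3 (1.92), Igf1r (1.90) and Insr (1.45). Nearest to Kit were Ccdc136 at 0.191, Mrgpre at 0.198 and Hhat at 0.295, where the profile of Kit itself had a root mean square of 1.17. Ret was followed by Gcnt3 at 0.269, Pla2g2f at 0.334 and Pcbd1 at 0.444, against 1.90 for Ret itself. Vwa2 (0.424), Enpep (0.455) and Mst1 (0.480) were nearest to Met, whose own value was 2.17. Mst1 encodes a ligand related to hepatocyte growth factor. Pls1 (0.332), Ankrd33b (0.344) and BB218582 (0.392) were nearest to Erbb3, whose own value was 1.98. For Fgfr2 the nearest were Gm26606 at 0.388, Ptpru at 0.404 and Kcnj6 at 0.413, against 0.938, and for Fgfr1 they were Scx at 0.640, Fam110b at 0.742 and Pmepa1 at 0.759, against 2.43. Egfr had no close neighbour, the nearest being Pde3a at 1.46 against 2.21 for Egfr itself. All libraries of a culture share cells, so these distances mostly describe how the cultures differ.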

How the data were processed

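Raw read counts, whole and not normalized, were deposited by the authors for each gene with its symbol and coordinates (GRCm38), which are those printed. Library preparation followed the Illumina TruSeq RNA protocol, per the labels. The submitters' processing notes name SAMtools 0.1.19, Bowtie 1.0.0, TopHat2 2.1, DESeq2 and the build GRCm38/mm10. Which program counted the reads, with which strand setting and gene annotation, is not given in the sources used here, so reads of overlapping genes cannot be told apart. Samples were grouped by the source field, which states the vector (the titles call the Nfib samples Tumor), and 1 further allele of the labelled genotype and the values of 1 marker gene are not reported here.

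Genes were filtered with edgeR's expression filter by group, which kept 13380. The unpaired and culture tests used edgeR 4.0.16 (R 4.3.3, quasi-likelihood, original form, TMM), and the within-pair test DESeq2 1.42.0 (Wald test, replicate block, size factors, unshrunk), each with Benjamini-Hochberg adjustment at 0.05 over all genes. DESeq2 left 260 adjusted p-values undefined, which count as not passing. Libraries with the same number were paired because the sample descriptions give them the same line. Deviations from the group means correlated at 0.908, 0.884, 0.935 and 0.929 within numbers and at most at 0.0647 between numbers. CPM uses TMM-scaled library sizes, and pair log2 ratios a prior count of 2. Levels between genes use CPM per kilobase of the union of annotated exons. Intervals of pair ratios are exact binomial at 95%. The fits were tested on simulated counts. The receptors, the gene lists and the within-pair DESeq2 test were chosen with earlier results of these data known. Of each list the text names the members that pass and some of the 3 most abundant. Fgfr4, Cdh5 and Emcn fall outside that rule, and other genes are said to be named after their values were seen. Alternatives covered the tool, scaling, filter, block, exon length, old and new cultures, and leaving out each pair.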

Additional observations from a re-analysis of the deposited data

Results flagged for a closer look

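For the 34 genes that the naming rule gives, 102 sets of 4 values (CPM in either group, or log2 ratios of the pairs) were examined, and in 9 of them 1 library lay far from the others, by a gap above Dixon's critical share of the group's whole range. That share is passed about 1 in 20 times by 4 independent values of 1 normal distribution. The sets here hold different cultures, and both arms of a culture were counted, so 9 of 102 cannot be set against that rate. Met was at 209 CPM in Nfib replicate 1 and at 174 CPM in empty vector replicate 1, so both arms of culture 1 stood apart. Igfbp2, which encodes a binding protein of insulin-like growth factors, was at 17.6 CPM in Nfib replicate 4 and at 20.5 CPM in empty vector replicate 4, again both arms of 1 culture. Its relative Igfbpl1 was at 32.1 CPM in empty vector replicate 4. Ror1 reached 42.1 CPM in Nfib replicate 2. Among the Nfib libraries, Fgfrl1 was lowest in that replicate at 0.551 CPM, as was the kinase Aatk at 32.1 CPM. Kl was at 32.2 CPM in empty vector replicate 3. No cause was tested for any of these values.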

How the results depend on the processing

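The number of genes called within pairs depended on the test. DESeq2 with the replicate block called 543 genes and 2 receptors. EdgeR with the replicate block called 0 genes and 0 receptors in its original form and 44 genes and 0 receptors in its bias-adjusted form, and limma 3.58.1 (voom) with the block called 3 genes and 0 receptors. DESeq2 with no replicate block called 3 genes and 0 receptors, and with the line as the block 35 genes and 0 receptors. With 1 pair left out, DESeq2 called between 232 and 387 genes and between 1 and 3 receptors. Kit and Fgfr1 kept their direction in all of these, with log2 changes between -0.66 and -0.39 for Kit and between 1.22 and 1.74 for Fgfr1 with 1 pair left out, and both passed with total counts, TMM scaling, other low-count filters, Nfib left out, and the Lmyc3 pairs summed. Without the block DESeq2 called 3 genes where edgeR called 0. The interaction with old and new gave 7 genes in DESeq2 and 0 in edgeR, and that of Erbb3 changed sign, from -0.04 in edgeR to 0.0043 in DESeq2. In the test of cultures 7 or 8 receptors were called under every alternative. The cause of these differences between tests was not tested. Ret led in 5 libraries per length of exon union and in 4 with the longest transcript or with no length. Low counts limit the ratios of Fgfr1 and Egfr in culture 1, where the empty vector library had 2 and 0 counts although it was the deepest of all (29934021 counts).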

Other observations

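The insulin-like growth factor axis had values that fall outside the receptor comparisons. Of the 3 tested genes of binding proteins for these factors, 0 passed the paired DESeq2 test, which called 4.06% of all genes. None had an unadjusted p under 0.05 in DESeq2, where 1854 of all 13380 genes did. EdgeR with the replicate block called 0 of them, as it called 0 genes in all. Igfbp5, the binding protein gene with the most transcript in these libraries, was at 903, 4937, 3759 and 848 CPM with Nfib, against 1138, 4888, 4097 and 669 CPM with empty vector. It was high in both Lmyc3 cultures and lower in the other lines, the reverse of Igf2r. It did not pass within pairs (fitted log2 difference -0.03 ± 0.12, SE, with an adjusted p of 0.968 in DESeq2). Igf2, the ligand gene, was at 0.0435, 11.6, 3.75 and 12.3 CPM with Nfib, against 0, 32.6, 5.48 and 28.4 CPM with empty vector, with a fitted log2 difference of -1.04 ± 0.36 (SE) and an adjusted p of 0.0726 in DESeq2. Igf1 was at or under 0.330 CPM in all 8 libraries.

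Kdr, the receptor for vascular endothelial growth factor and 1 of the endothelial markers above, did not pass the filter on low counts, which asks for reads in more libraries than had them. It was at 0, 5.74, 6.47 and 0.156 CPM with Nfib, against 0, 0.0944, 0.0371 and 0 CPM with empty vector, so the Nfib libraries of both Lmyc3 cultures stood apart. Ntrk2, the receptor for brain-derived neurotrophic factor, was at 21.99, 49.5, 64.2 and 1.32 CPM with Nfib, against 34.5, 111, 124 and 0.586 CPM with empty vector. It was lower with Nfib in pairs 1 to 3 and did not pass (DESeq2 adjusted p of 0.394). Igf2, Igf1, Kdr and Ntrk2 were chosen after their values were seen.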
